A study of Mus musculus with 9 samples.

Results

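Complement is a cascade of plasma and cell-surface proteins that tags microbes and debris for uptake. The 9 complement genes followed here are C3, Cfb, Cfp, C4b, C1qa, C1qb, C1qc, C3ar1 and C5ar1. They were chosen by name, with earlier results of these data known, and all 9 were present among the 12003 genes of the expression table. Polyadenylated RNA was sequenced from alveolar macrophages, the resident macrophages of the airspaces, of sex-matched C57BL/6 mice aged 8 to 12 weeks and kept under steady-state conditions. Floxed controls were Vhl(flox/flox) / CD11c (+/+) and carried no Cre. Cre controls were Vhl(+/+) / CD11c (cre/+), and knockout mice were Vhl(flox/flox) / CD11c (cre/+). Each genotype had 3 pools of 5 to 7 mice, and cells from lavage fluid were enriched with beads against CD11c. CD11c is also carried by dendritic cells, so that both the Cre and the beads act beyond alveolar macrophages. The p-values below measure the spread between pools, not between single mice.

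Libraries held 18201116 to 25861174 reads over the table's genes. Values are normalized reads, which are reads scaled by 1 factor per library and not corrected for gene length. One read was worth 0.0400 to 0.0565 normalized reads. Vhl, which encodes the substrate-binding subunit of the ubiquitin ligase that marks HIF-alpha subunits for breakdown, lay at 14.9 to 21.0 in floxed controls, 21.9 to 25.3 in Cre controls and 2.02 to 2.52 in the knockout. Alveolar macrophage markers were abundant in every library, with Chil3 at 15661 to 38057, Cd9 at 2745 to 3469.6, Siglecf at 325 to 593 and Marco at 363 to 1021. Of the 19 such markers 7 rose and 4 fell in the knockout. Unless another comparison is named, such counts for lists are of genes at a limma adjusted p under 0.05 against both controls. At that level 19.7% of all genes rose and 20.2% fell. The summed level of the 19 markers was 31384 to 35498 in floxed controls, 30011 to 35043 in Cre controls and 40765 to 53868 in the knockout. Chil3 was the largest part of this sum, at means of 17872 in controls and 30308 in the knockout. Against both controls the list's median log2 difference was 0.098. Siglecf fell by 0.58 and Marco rose by 0.83 on the log2 scale (limma adjusted p = 2.76e-04 and 0.00965). In RNA from whole populations, fewer cells of a type and less RNA per cell cannot be told apart.

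Complement is started along 3 routes that meet at C3. In the classical route C1q, built from the chains of C1qa, C1qb and C1qc, binds antibody or dying cells and its partner proteases cut C4 and C2. The lectin route reaches C4 and C2 from sugar-binding proteins. In the alternative route factor B (Cfb) joins deposited C3b to form a convertase that properdin (Cfp) holds together, and so amplifies the reaction. The small fragments C3a and C5a act on the G protein-coupled receptors encoded by C3ar1 and C5ar1. Liver makes most of the plasma proteins, while macrophages are known as a source of C1q, properdin and local C3.

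Vhl-knockout macrophages had less C3 and Cfb RNA and more C4b and C3ar1 RNA than either control, while C5ar1 and Cfp did not pass the test. Against both controls together, 7 of the 9 genes passed a limma test at an adjusted p under 0.05, 2 of them higher and 5 lower. In that comparison 39.8% of all genes passed, 19.7% higher and 20.2% lower. Against floxed controls alone the same 7 genes passed, 2 higher and 5 lower, where 34.3% of all genes did (17.5% higher and 16.8% lower). Against Cre controls alone 4 passed, 2 higher and 2 lower, where 34% of all genes did (16.3% higher and 17.7% lower). C3, Cfb, C4b and C3ar1 passed in the same direction against each control, as did 27.3% of all genes. The median log2 difference of the 9 genes against both controls was -0.65, beside a median of -0.0022 over all genes. The comparisons with floxed and with Cre controls share the knockout libraries.

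Few genes passed the test between the 2 control genotypes. None of the 9 genes passed the limma test between Cre and floxed controls, and none passed by edgeR or DESeq2, while 0.167% of all genes passed by limma (20 of 12003). At an unadjusted p under 0.05, 3 of the 9 were lower in Cre than in floxed controls by limma, and these were C1qa, C1qb and C1qc. Of all genes 8.01% had such a p.

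**Figure D1:**
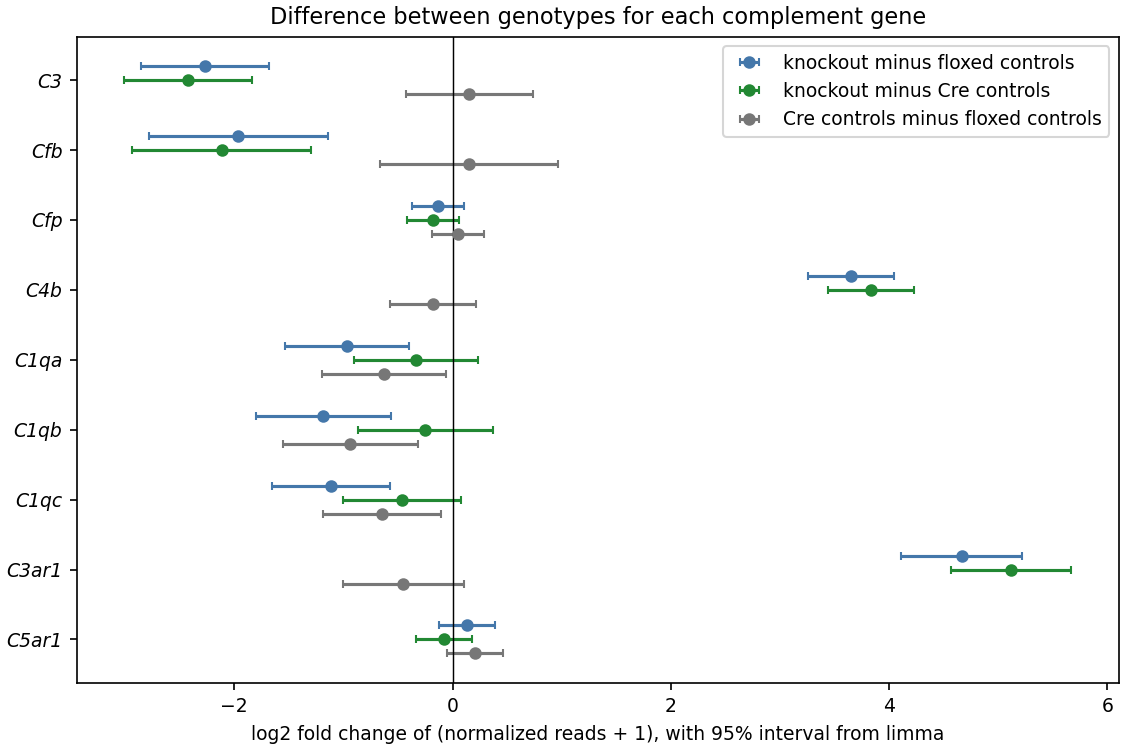
Log2 differences of the 9 complement genes on the log2(normalized reads + 1) scale, with limma's 95% confidence intervals, for knockout minus floxed controls (blue), knockout minus Cre controls (green) and Cre minus floxed controls (grey). C3ar1 (4.67 and 5.12) and C4b (3.65 and 3.83) lie far to the right in both knockout comparisons and C3 (-2.27 and -2.42) far to the left, while every interval of C5ar1 and Cfp spans 0.

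C3 encodes the protein on which all routes converge, and it lies on the minus strand at chr17:57203970-57228136 (GRCm38, ENSMUSG00000024164). Its level was 636, 662 and 424 normalized reads in the floxed controls, 423, 647 and 897 in the Cre controls and 95.7, 138 and 118 in the knockout. Every knockout library lay below every control library. The mean fell from 615 ± 177 (SD, n = 6) in controls to 117 ± 21.1 (SD, n = 3), so that it was 5.25-fold higher in controls. The log2 difference was -2.35 (SE 0.23, limma adjusted p = 2.92e-05) against both controls, -2.27 against floxed and -2.42 against Cre controls.

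Cfb encodes the serine protease of the alternative convertase and lies on the same chromosome, at chr17:34856374-34862518 (ENSMUSG00000090231). It was measured at 445, 602 and 260.3 normalized reads in the floxed controls, 259, 520.0 and 708 in the Cre controls and 89.7, 125 and 103 in the knockout. Again no knockout library reached the lowest control. The mean fell from 466 ± 182 (SD, n = 6) to 106 ± 17.7 (SD, n = 3), 4.40-fold higher in controls, and the log2 difference was -2.04 (SE 0.32, limma adjusted p = 6.74e-04). A readthrough gene, Gm20547, overlaps Cfb on the same strand and is not used here, so how the reads of the locus were divided is uncertain. The 37.7% of all genes whose knockout libraries lay wholly outside the control range are the background for C3, Cfb, C4b and C3ar1, the 4 of 9 that did so.

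C3 and Cfb ranked the 6 control libraries in the same order, with the lowest pair of values in floxed control 3 and Cre control 1 and the highest in Cre control 3. Over the 6 control libraries Pearson's r of their log2 values was 0.97 (exact permutation p = 0.0014, two-sided, the smallest that 6 libraries allow) and Spearman's rho was 1 (exact permutation p = 0.0028). Adjusted over the 36 pairs of the 9 genes, these became 0.05 and 0.1, neither of them under 0.05. Without floxed control 3 and Cre control 1, the libraries farthest from the median of C3, r was 0.84 over 4 libraries. The ratio of C3 to Cfb normalized reads stayed between 1.07 and 1.64 over all 9 libraries.

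**Figure D2:**
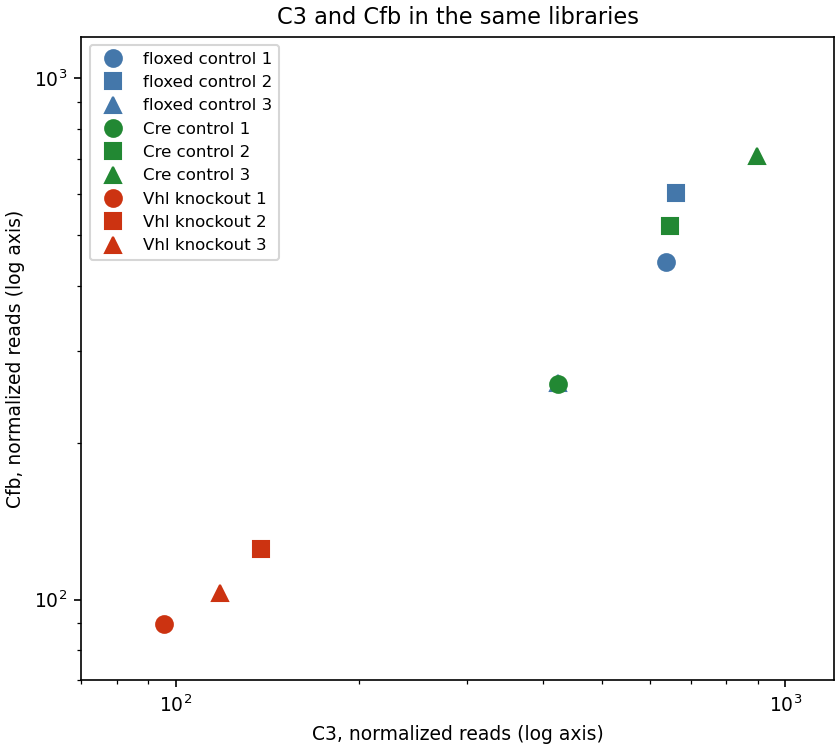
C3 against Cfb in each of the 9 libraries, in normalized reads on logarithmic axes, with 1 symbol per pool coloured by genotype; Cre control 1 covers floxed control 3. The knockout pools sit at the lower left, with C3 at 95.7 to 138 and Cfb at 89.7 to 125, apart from the controls at 423 to 897 and 259 to 708.

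Most of the listed dendritic cell markers were also lower in the knockout. Of the 15 markers, all measured and none at 0 in any library, 12 fell and 2 rose in the knockout, and their summed level was 213 to 376 in floxed controls, 238 to 443 in Cre controls and 184 to 200 in the knockout. Cd83 and Ccl22 had the highest levels on the list, and Cd83 rose by 0.57 and Ccl22 fell by 0.96 on the log2 scale (limma adjusted p = 0.00386 and 0.00734). Ccr7, the chemokine receptor of migrating dendritic cells, named after its values were seen, lay at 42.4, 19.1 and 25.4 in floxed controls, 26.0, 69.8 and 61.6 in Cre controls and 3.30, 4.90 and 4.72 in the knockout. Among lung epithelial markers 11 of 16 were measured, of which 1 rose and 3 fell, with sums of 230 to 510, 287 to 394 and 330 to 393. E-cadherin (Cdh1), which alveolar macrophages also express, rose by 1.18, and the club cell gene Scgb1a1, at means of 91.2 and 40.6, did not pass (limma adjusted p = 3.00e-06 and 0.115). The part of these cells in the C3 and Cfb difference was not tested.

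The promoters of C3, which fell, and of C3ar1, the gene with the largest rise among the 9, are shown for comparison as RefSeq gives them (GRCm38.p6, 250 bases before to 50 after the start, 5′ to 3′ on the gene's strand). The C3 window is chr17:57228087-57228386, minus strand, and the C3ar1 window is chr6:122856108-122856407, minus strand. Capitals mark kappaB matches (GGG, any 5 bases, then CC, on either strand) and TGCTGA, part of a bZIP factor recognition element, or its reverse complement.
C3: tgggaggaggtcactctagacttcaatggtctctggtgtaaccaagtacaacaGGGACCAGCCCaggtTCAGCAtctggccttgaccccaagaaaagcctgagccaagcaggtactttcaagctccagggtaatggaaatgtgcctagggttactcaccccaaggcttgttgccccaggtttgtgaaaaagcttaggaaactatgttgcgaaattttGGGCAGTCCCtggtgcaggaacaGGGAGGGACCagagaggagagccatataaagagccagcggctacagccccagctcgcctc
C3ar1: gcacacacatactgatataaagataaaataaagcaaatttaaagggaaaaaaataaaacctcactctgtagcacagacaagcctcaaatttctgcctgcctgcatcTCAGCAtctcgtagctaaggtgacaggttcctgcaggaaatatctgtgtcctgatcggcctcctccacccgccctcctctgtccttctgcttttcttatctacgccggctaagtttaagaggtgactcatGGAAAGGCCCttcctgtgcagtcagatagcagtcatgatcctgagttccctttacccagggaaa

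The C3 window held kappaB matches that begin 197, 196, 33 and 10 bases before the start, the first 2 of which overlap, and the C3ar1 window held 1 that begins 14 bases before it. Both held TGCTGA on the minus strand, 182 and 144 bases before the start. The letters of the HIF core (ACGTG or GCGTG) were in neither window. Of all 27025 promoter windows 50.4% hold the kappaB letters, 19.1% TGCTGA, 19.7% ACGTG and 32.5% GCGTG, counting both strands. Of the 9 genes 6 had a window, and among these 5 held kappaB, 4 TGCTGA, 1 (Cfp) a HIF core and none the interferon-response letters (GAAA, any 2 bases, then GAAA), found in 3.49% of windows. CACGTG, the E-box palindrome that contains ACGTG, was in 7.24% of windows. Letter matches describe these windows and do not show binding.

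Cfp encodes properdin, and lies at chrX:20925454-20931555 (ENSMUSG00000001128). It was measured at 164, 151 and 131 normalized reads in the floxed controls, 164, 130.2 and 168 in the Cre controls and 141, 135 and 129 in the knockout. The groups overlapped, and the log2 difference was -0.16 (95% interval -0.36 to 0.05, limma adjusted p = 0.207). Without Cre control 2 the gene passed as lower, at -0.22 (adjusted p = 0.0493). Of the alternative route, then, C3 and Cfb fell and Cfp did not pass the test.

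C4b encodes C4, the source of the C4b fragment on which the classical and lectin convertase is built, and it lies at chr17:34728380-34743882 (ENSMUSG00000073418), in the same stretch of chromosome 17 as Cfb. It was measured at 4.57, 5.48 and 4.67 normalized reads in the floxed controls, 3.75, 3.92 and 4.97 in the Cre controls and 98.8, 64.9 and 60.0 in the knockout. No control library exceeded 5.48, and knockout pool 1 was the highest. The mean rose 16.4-fold, from 4.56 ± 0.646 (SD, n = 6) to 74.6 ± 21.1 (SD, n = 3), with a log2 difference of 3.74 (SE 0.15, limma adjusted p = 6.97e-08). Against floxed controls the log2 difference was 3.65, and against Cre controls 3.83. A near-identical copy, C4a, lies 65.2 kb away and is not analysed here, so reads of the 2 genes may have been divided between them. Its neighbour Cfb, 112 kb away, moved in the other direction.

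The C1q chains were low in every group and lower in the knockout than in floxed controls. C1qa, C1qc and C1qb lie side by side on chromosome 4, with 2851 bases between C1qa and C1qc and 3616 between C1qb and C1qc. C1qa (chr4:136895917-136898803, ENSMUSG00000036887) was measured at 16.7, 8.19 and 12.2 normalized reads in the floxed controls, 9.77, 7.38 and 5.48 in the Cre controls and 6.74, 5.92 and 4.40 in the knockout. C1qb (chr4:136880129-136886187, ENSMUSG00000036905) was at 15.4, 9.06 and 15.8, then 9.77, 4.81 and 5.31, then 6.01, 6.08 and 3.76. C1qc (chr4:136889804-136893065, ENSMUSG00000036896) was at 10.8, 6.86 and 9.67, then 6.67, 4.81 and 4.75, then 5.02, 4.08 and 2.20. For each chain the knockout lay wholly below the floxed controls and overlapped the Cre controls. Counting these chains, 7 of the 9 genes did not overlap the floxed controls and 4 did not overlap the Cre controls, as against 47.3% and 51.2% of all genes.

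Against floxed controls the log2 differences were -0.96 for C1qa (limma adjusted p = 0.0151), -1.19 for C1qb (adjusted p = 0.00828) and -1.11 for C1qc (adjusted p = 0.00571). Against Cre controls they were -0.34, -0.25 and -0.46, with limma adjusted p-values of 0.342, 0.531 and 0.171. Cre controls themselves lay below floxed controls by -0.63, -0.94 and -0.65 on the log2 scale, and this direct test did not pass either (limma adjusted p = 0.612, 0.528 and 0.590). Whether the knockout difference depends on the control is therefore not shown. Against both controls together C1qa (-0.65, adjusted p = 0.0390), C1qb (-0.72, 0.0372) and C1qc (-0.79, 0.0135) passed the limma test.

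These 3 calls rested on single pools. C1qa no longer passed without floxed control 1 or 3, Cre control 1 or 2, or knockout pool 2 or 3, with adjusted p up to 0.167, and C1qb no longer passed without floxed control 1 or 3 or without any 1 of the knockout pools, with adjusted p up to 0.170. C1qc no longer passed without knockout pool 3 (-0.52, adjusted p = 0.0614). Without that pool 4 of the 9 genes passed, and C1qa did not pass against floxed controls either (adjusted p = 0.0636).

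Levels of the chains correlated over the 6 controls, which span 2 genotypes, though no pair had an adjusted p under 0.05. Their summed level was 42.9, 24.1 and 37.7 in floxed controls, 26.2, 17.0 and 15.5 in Cre controls and 17.8, 16.1 and 10.4 in the knockout. Over the 6 controls Pearson's r was 0.95 between C1qa and C1qc, 0.90 between C1qa and C1qb and 0.98 between C1qb and C1qc, with exact permutation p-values of 0.0042, 0.018 and 0.022, or 0.075, 0.16 and 0.16 adjusted over the 36 pairs.

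Some markers of interstitial and other tissue macrophages, a population known for high C1q, were also lower in the knockout. Of the 13 listed, 10 were measured, and 4 fell, 1 rose and 5 did not pass against both controls. Against Cre controls alone 2 fell and 1 rose, and the list's median log2 difference was 0.014. The sum was 541 to 695 in floxed controls, 538 to 596 in Cre controls and 383 to 411 in the knockout. Csf1r, the M-CSF receptor, and Cd14 made up most of it, and both are expressed by alveolar macrophages too. Csf1r fell by 0.60 on the log2 scale (limma adjusted p = 3.05e-04), while Cd14 differed by -0.35 and did not pass (adjusted p = 0.161). Folr2, Lyve1 and Cd163 were not analysed here, and the part of these cells in the C1q values was not tested.

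The promoters of C1qb and C1qc, 2 neighbouring genes of this cluster, are shown because the levels of the chains correlated over the 6 controls. They are the RefSeq windows chr4:136886151-136886450 and chr4:136892865-136893164, both on the minus strand (GRCm38.p6). Capitals mark the kappaB letters, TGCTGA and GAGGAA, the letters of the PU box bound by myeloid ETS factors, or their reverse complements.
C1qb: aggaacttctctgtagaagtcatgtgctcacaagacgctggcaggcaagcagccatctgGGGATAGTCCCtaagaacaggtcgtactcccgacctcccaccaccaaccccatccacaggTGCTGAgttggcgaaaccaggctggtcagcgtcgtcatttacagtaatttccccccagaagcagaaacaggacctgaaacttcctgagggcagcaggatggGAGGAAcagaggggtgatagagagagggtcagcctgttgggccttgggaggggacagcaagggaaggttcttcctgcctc
C1qc: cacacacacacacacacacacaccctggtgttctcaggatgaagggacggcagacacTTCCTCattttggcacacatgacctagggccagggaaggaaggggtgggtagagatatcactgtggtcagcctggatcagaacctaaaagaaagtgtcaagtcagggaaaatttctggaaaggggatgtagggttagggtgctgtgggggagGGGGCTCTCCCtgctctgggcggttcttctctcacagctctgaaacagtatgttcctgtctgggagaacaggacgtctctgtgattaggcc

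Both windows held overlapping kappaB matches, the first of which begin 191 bases before the start in C1qb and 41 before it in C1qc. Both held GAGGAA, 30 bases before the start of C1qb and, on the minus strand, 193 before that of C1qc. GAGGAA was in 28.3% of all windows. The TGCTGA letters were in the C1qb window only, 131 bases before its start.

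C3ar1 encodes the receptor for C3a and showed the largest difference of the 9 genes. It lies at chr6:122847138-122856161 (ENSMUSG00000040552), 9.22 Mb from Vhl on the same chromosome. It was measured at 7.99, 3.23 and 6.88 normalized reads in the floxed controls, 4.08, 4.71 and 3.05 in the Cre controls and 164, 155 and 189 in the knockout. The lowest knockout pool was far above the highest control, and these values rest on 54 to 4720 reads. The mean rose 33.9-fold, from 4.99 ± 2.02 (SD, n = 6) to 169 ± 17.4 (SD, n = 3), with a log2 difference of 4.89 (SE 0.21, limma adjusted p = 1.22e-07). Against floxed controls it was 4.67 and against Cre controls 5.12.

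Monocyte markers, some of them shared with other macrophages, changed in both directions beside C3ar1 and C4b. Of 12 listed, 11 were measured, and 4 rose and 3 fell against both controls. Against floxed controls alone 2 rose and 4 fell, and against Cre controls alone 4 rose and 3 fell. The summed level was 911 to 1013 in floxed controls, 933 to 998 in Cre controls and 801 to 818 in the knockout. Ly6c2, which defines classical monocytes, was at 0 in Cre control 2 and at most 3.86 in any library. Itgal, the integrin chain with the highest level on the list, fell by 0.56 on the log2 scale, and Ace, the angiotensin-converting enzyme, rose by 1.28 (limma adjusted p = 2.32e-05 and 3.23e-07). F13a1, the coagulation factor XIII A chain, named after its values were seen, had the largest change on the list. It went from 0.596 ± 0.303 normalized reads (SD, n = 6) to 53.2 ± 10.0 (SD, n = 3), a rise of 5.09 on the log2 scale (limma adjusted p = 1.33e-08). The chemokine receptor gene Ccr2 rose from 26.1 to 39.7 normalized reads (limma adjusted p = 0.00356). The part of monocytes in the C3ar1 and C4b values was not tested.

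C5ar1, the receptor for C5a that draws neutrophils and macrophages to sites of activation, stayed within the range of the controls. It lies at chr7:16246743-16259540 (ENSMUSG00000049130) and was measured at 215, 220.5 and 209.6 normalized reads in the floxed controls, 302, 212 and 237 in the Cre controls and 244, 249 and 214 in the knockout. The means were 233 ± 35.5 (SD, n = 6) and 236 ± 19.0 (SD, n = 3). The log2 difference was 0.03 (95% interval -0.20 to 0.25, limma adjusted p = 0.858), and its sign turned when the scaling factor was left out (-0.022). The interval leaves out any change near that of C3ar1.

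**Figure D3:**
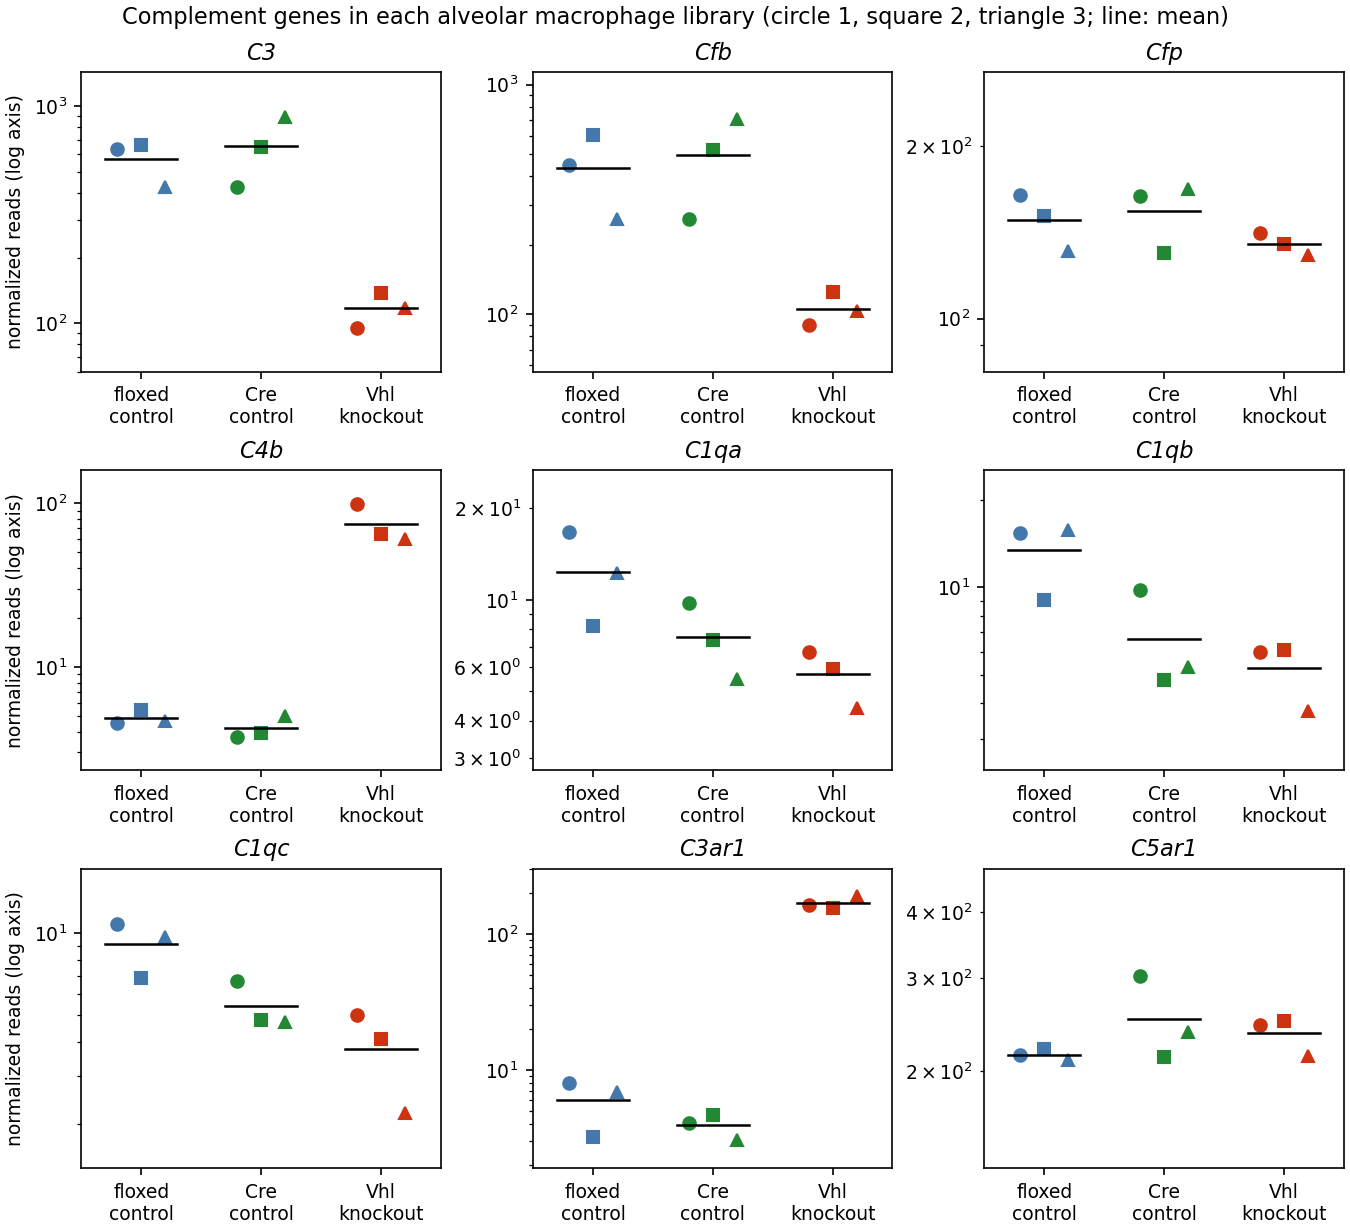
Normalized reads of the 9 complement genes in each library, 1 panel per gene with its own logarithmic axis, 1 symbol per pool of mice and a line at the genotype mean. C3 and Cfb knockout pools lie below all controls, C4b and C3ar1 knockout pools above all controls, and C5ar1 and Cfp pools overlap.

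Levels of different genes were compared per kilobase of exon. In controls Cfb stood first at 165 ± 64.4 normalized reads per kb (SD, n = 6), followed by C3 at 120 ± 34.4, C5ar1 at 90.6 ± 13.8 and Cfp at 87.2 ± 9.76. Each of these overlapped the next in range. The C1q chains followed at 9.57 for C1qa, 9.22 for C1qb and 3.76 for C1qc, and C3ar1 at 1.16 and C4b at 0.801 were last. The gaps between Cfp and C1qa and between C1qc and C3ar1 were the only ones without overlap among the 6 controls.

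In the knockout the order changed. C5ar1 stood first at 91.7 ± 7.41 normalized reads per kb (SD, n = 3) and Cfp at 77.7 ± 3.38 followed. C3ar1 at 39.3 and Cfb at 37.4 overlapped in range, C3 was at 22.8 and C4b at 13.1. C1qa at 5.47 and C1qb at 4.85 overlapped, and C1qc at 1.95 was lowest. The per-kb level of C3ar1 went from below that of C1qc in controls to above that of C3.

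**Figure D4:**
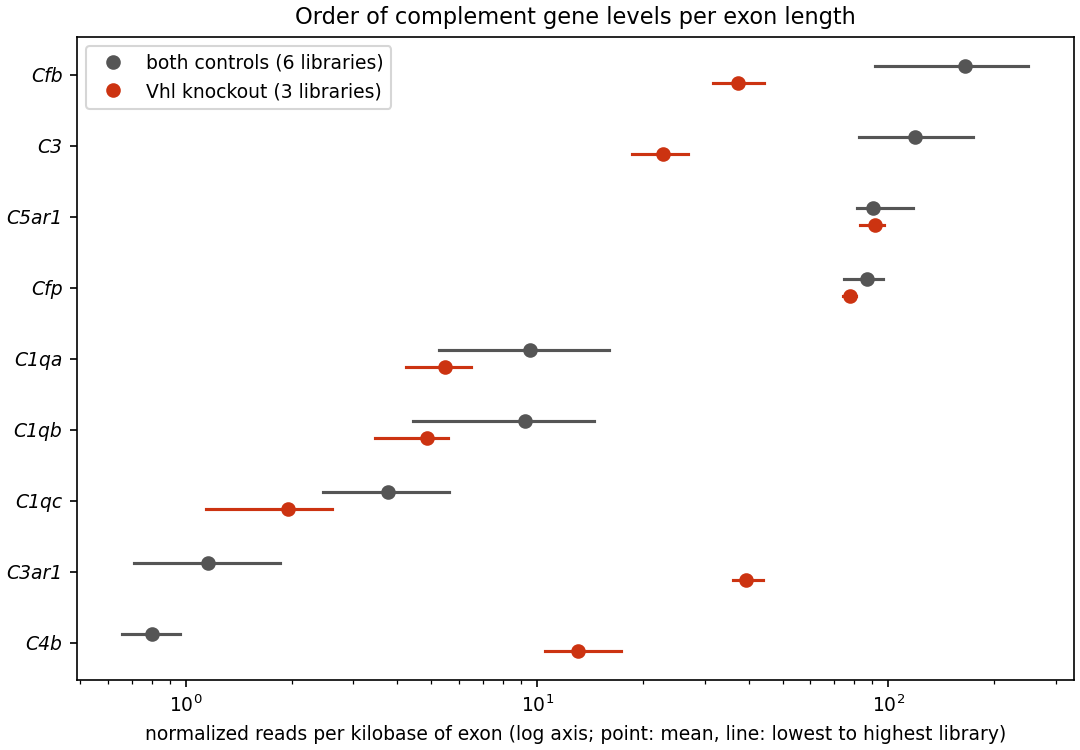
Normalized reads per kilobase of exon for the 9 complement genes on a logarithmic axis, with points for the mean of the 6 controls or the 3 knockout libraries and lines from the lowest to the highest library. In controls Cfb and C3 lead and C3ar1 and C4b are last, while in the knockout C5ar1 and Cfp lead, followed by C3ar1.

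Complement genes beyond these 9 were few in the table and mostly higher where they changed. Of 55 others listed, 20 were measured, and 8 rose, 1 fell and 11 did not pass, with a median log2 difference of 0.14. Of all genes 39.8% passed in that comparison, 19.7% higher and 20.2% lower. In the classical and lectin list, which includes C4b and the C1q chains, 8 of 19 genes were measured, of which 3 rose and 3 fell. C1ra, a protease of the C1 complex, rose from 56.6 ± 6.51 (SD, n = 6) to 83.6 ± 2.49 (SD, n = 3), by 0.56 on the log2 scale (limma adjusted p = 9.43e-04). Fcna, a ficolin, rose by 0.99 from a level of 0.650 to 2.28 normalized reads (adjusted p = 0.00127). The scavenger lectin Colec12 lay at 48.4 and 53.2, and C2, the protease that pairs with C4b, at 6.34 and 4.59, and neither passed.

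Of the 4 genes of the alternative route 3 were measured, the C3, Cfb and Cfp described above. In the terminal pathway only C8g, 1 of 7, was measured, at 1.02 and 1.43 normalized reads, and it did not pass. Among the regulators 5 of 19 were measured, of which 1 rose and 1 fell, with a median log2 difference of -0.40. Cr1l, the mouse membrane regulator Crry, rose by 0.28 on the log2 scale (limma adjusted p = 0.00518). The C1 inhibitor gene Serping1 (means of 3.60 and 3.05) and Cd55, the decay-accelerating factor (2.74 and 1.40), did not pass, and both were highest in floxed control 1.

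Among receptors and C1q-binding surface proteins 12 of 15 were measured, and 6, with C3ar1 among them, rose and none fell against both controls. C5ar2, the second C5a receptor and a neighbour of C5ar1 on chromosome 7, rose from 30.3 ± 3.83 (SD, n = 6) to 46.9 ± 4.49 (SD, n = 3), by 0.62 on the log2 scale (limma adjusted p = 0.00104). Cd93, a surface glycoprotein, rose from 116 ± 26.2 to 214 ± 28.6, by 0.91 (adjusted p = 0.00306). Itgam, the alpha chain of the iC3b receptor CR3, lay at 73.7, 22.8 and 26.0 in floxed controls, 47.8, 21.2 and 28.1 in Cre controls and 106, 82.2 and 78.1 in the knockout, a rise of 1.39 (adjusted p = 0.0106). Floxed control 1 also had the highest sum of neutrophil markers, with S100a8 at 123 there and at most 75.8 elsewhere. Of the 10 neutrophil markers 8 were measured, of which Mmp8 rose and none fell, and their sums were 328 to 1254, 196 to 585 and 236 to 670. The list's highest genes, Ltf (279 and 189) and Csf3r (95.9 and 47.8), did not pass. The part of neutrophils in the Itgam values was not tested beyond leaving out that library. Without floxed control 1 the Itgam difference was 1.65 (adjusted p = 2.95e-04).

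The shared integrin chain Itgb2 (2419 and 2652) and Itgax, the CR4 alpha chain CD11c itself (2110.3 and 1897), did not pass against both controls. Itgax lay at 2103 to 2760.4 in the Cre controls and 1672 to 1747 in the floxed controls, and was lower in the knockout than in Cre controls by 0.39 on the log2 scale (limma adjusted p = 0.0173). The remaining 2 that rose, Lrp1 (0.66, adjusted p = 0.0258) and Lair1 (0.26, adjusted p = 0.0243), were named after their values were seen. Lrp1 no longer passed without knockout pool 2 or 3 (adjusted p = 0.117 and 0.128) and Lair1 without pool 3 (0.124). With all libraries, Lrp1 did not pass against floxed controls alone (limma adjusted p = 0.117), nor Lair1 against Cre controls alone (0.110).

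**Figure D5:**
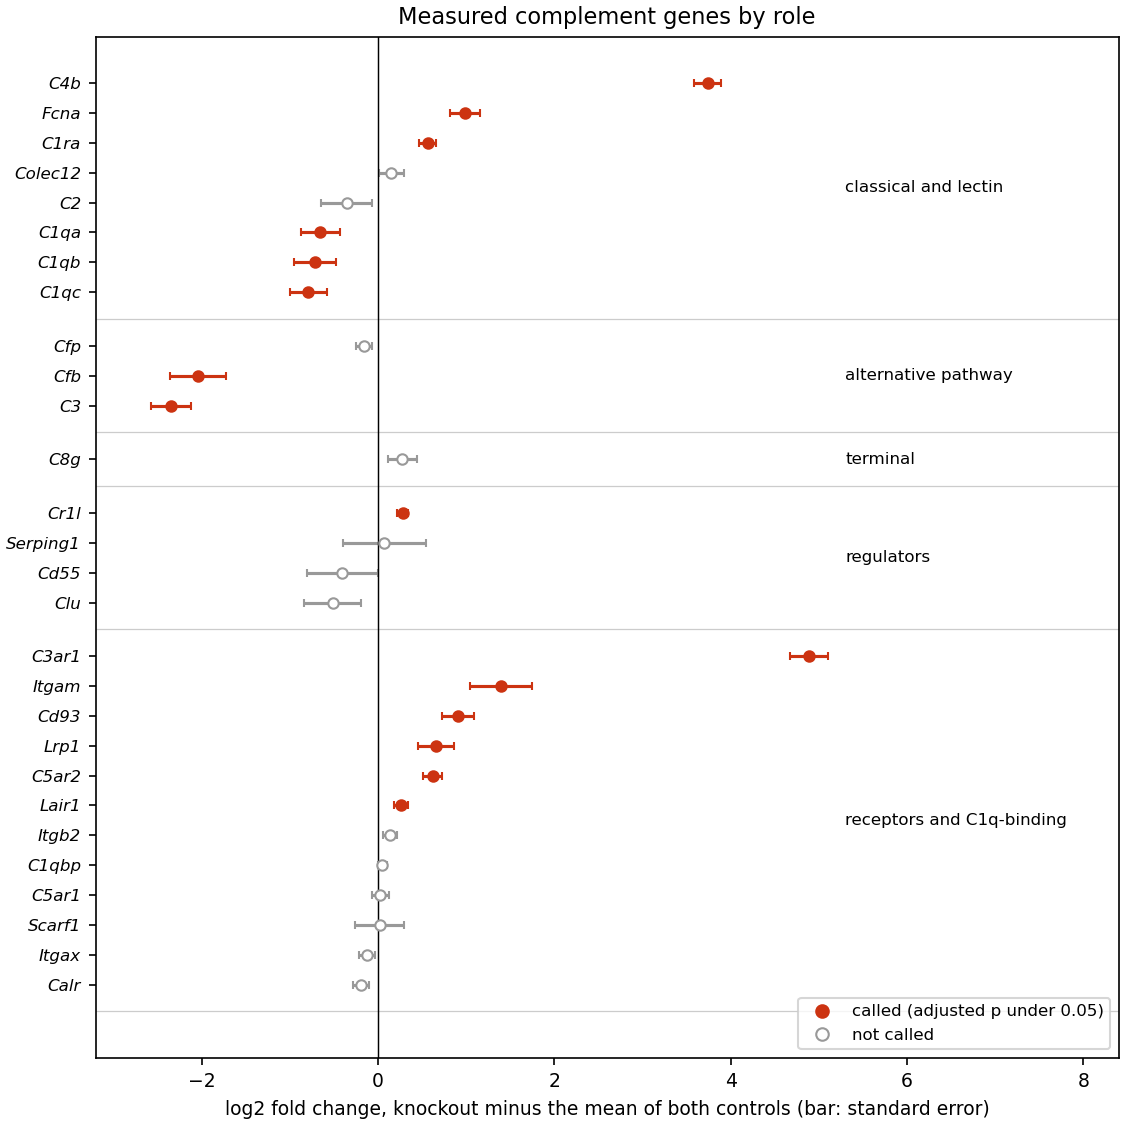
Log2 differences of measured complement genes, knockout against both controls, grouped by role and shown with their standard errors, filled where limma's adjusted p was under 0.05. Outside the 9 genes Itgam at 1.39 is the highest.

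Of the 11 listed signalling partners of the C3a and C5a receptors, all measured, 3 rose and 5 fell. Of all genes 19.7% rose and 20.2% fell. The 2 beta-arrestin genes, whose proteins switch off and internalise such receptors, moved in opposite directions. Arrb1 rose from 66.3 ± 17.4 (SD, n = 6) to 368 ± 25.4 (SD, n = 3), by 2.50 on the log2 scale (limma adjusted p = 5.66e-06), and Arrb2 fell from 131 ± 6.42 to 70.8 ± 3.65, by 0.88 (adjusted p = 2.00e-06). Pik3cg, the catalytic subunit of the PI3-kinase that these receptors use, rose from 149 to 217 normalized reads, by 0.54 (adjusted p = 3.88e-05). Gnai2 also rose, and Gna15, Grk2, Plcb2 and Rgs2 fell, all 5 named after their values were seen. The G protein genes Gnai3 (211 and 195) and Gna13 (189 and 187) did not pass, though Gnai3 passed as lower without the scaling factor (-0.16, adjusted p = 0.0196).

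The genes whose pattern was most like that of each complement gene were ranked by Pearson's r of log2 values over the 9 libraries, among the 9829 genes whose mean reached 5 normalized reads. These correlations describe 9 libraries that share 3 genotypes. For C3 they were Il27ra (0.993), Tor3a (0.989) and Kynu (0.989), with Cfb at rank 10. For Cfb they were Slc11a2 (0.994), Relb (0.990) and Tnfrsf1b (0.988). C4b was closest to Plin4, Tmem159 and Kcnj15, from 0.997 to 0.996, and C3ar1 to Adamtsl5, Prelid2 and Nhsl2, from 0.996 to 0.994.

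For the C1q chains another chain ranked among the nearest. C1qa was closest to Fyb (0.956), C1qc (0.947) and Tpra1 (0.941), and C1qb to Ier2 (0.967), Trim12a (0.955) and C1qc (0.945). C1qc was closest to Rpain (0.968), Wdr5 (0.952) and Fmnl1 (0.948), with C1qa at rank 4. C5ar1 and Cfp, the genes that did not pass against both controls, had Mccc2 (0.920), Szrd1 (0.907) and Psen2 (0.905), and Rtcb (0.969), Sash3 (0.952) and 1110008P14Rik (0.937).

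Few of the listed fibroblast, mesothelial and lymphocyte markers were analysed here. Msln, the 1 of 10 fibroblast and mesothelial markers that was measured, fell in the knockout, with 15.9 to 53.7 normalized reads in floxed controls, 24.3 to 34.1 in Cre controls and 7.40 to 16.6 in the knockout. Of 12 lymphocyte markers 3 were measured, 1 rose and 1 fell, with sums of 189 to 259, 202 to 250 and 170 to 195. Cd2 fell by 0.26 on the log2 scale (limma adjusted p = 0.0144). Igkc passed as higher against both controls (adjusted p = 0.0437) but not against floxed controls (0.956), where floxed control 1 held 64.3 normalized reads. Their part in the complement values was not tested.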

How the data were processed

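Single-end libraries were read at 61 bases; CASAVA 1.8.2, cutadapt 1.3, RSEM 1.2.3 and GRCm38 are named per the submitters' processing notes. The authors deposited a table of signal values called normalized reads for 12003 genes in 9 libraries. All 100% of these deposited values were whole reads, within 0.01 read, times 1 factor per library, which gave the library totals. Every gene reached 0.962 in at least 3 libraries. Ensembl IDs were matched to GENCODE M21 for 11935 genes, and 68 had no symbol; levels per kb used its exon lengths.

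An edgeR test was planned if the values were counts, and limma if they were normalized. Because the values are scaled and not counts, limma 3.58.1 (R 4.3.3) was run on log2(value + 1), with all 9 libraries in 1 fit. It used a trended empirical Bayes step and Benjamini-Hochberg adjustment over all genes. Log2 differences are on that scale, which understates those of low genes, while folds are ratios of mean normalized reads. An adjusted p under 0.05 counted as passing. edgeR 4.0.16 on the recovered reads, which passed 4757 genes against both controls where limma passed 4781, and DESeq2 1.42.0 were alternatives. Scripts were tested on simulated data. No 2 libraries of a genotype agreed within sampling noise.

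The 9 genes and all lists were chosen with earlier results of these data known. Named besides them were, from each complement list, up to 3 passing genes ranked by adjusted p and up to 2 others ranked by mean, the 2 highest genes of each marker list, and the 3 nearest genes in pattern; S100a8, Ly6c2, F13a1, Ccr2, Siglecf and Marco were named after their values were seen. Replicate numbers were not used to pair the samples in the main fit. Some genes of the lists that were counted are not reported here by name.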

Additional observations from a re-analysis of the deposited data

Results flagged for a closer look

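Dixon's criterion flags 1 library far from the others, which chance meets about 1 time in 20. It was applied over the 6 control libraries to Vhl, the 9 complement genes, and the passing or named genes of the complement and receptor-signalling lists. Of these 36 genes 6 had such a library. Among the 9 complement genes this was C5ar1, at 302 normalized reads in Cre control 1 against 209.6 to 237 in the other controls. Floxed control 1 stood out for Serping1, at 11.3 against 0.680 to 3.58, and for Cd55, at 8.75 against 1.06 to 1.85. Pik3cg was low in Cre control 1, at 136 against 147 to 153. Grk2 was low in Cre control 3, at 278 against 293 to 300.3, and Plcb2 was high in floxed control 3, at 298 against 240.0 to 262.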

How the results depend on the processing

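C3, Cfb, C4b and C3ar1 kept their direction and passed under every alternative run in the 3 knockout comparisons. Against both controls their log2 differences ranged from -2.49 to -2.21, -2.24 to -1.88, 3.52 to 4.04 and 4.72 to 5.12. Leaving out 1 library at a time, 4 to 7 of the 9 genes passed against both controls, 6 to 7 against floxed and 4 to 5 against Cre controls, and the 4 came without knockout pool 3. Between the control genotypes 20 genes passed, 74 with DESeq2, 11 with only the groups compared, and 13 to 31 leaving out 1 library. Replicate numbers are shared between genotypes, and whether they mark a pairing cannot be told from the labels. Same-numbered libraries correlated at -0.082 to 0.575, 5 of 9 pairs over 0.1. With the number as a replicate block 4898 genes passed against both controls and 71 between the control genotypes, and no call on the 9 genes changed. Against floxed controls 2099 genes were higher and 2013 lower, or 1635 and 2540 without the scaling factor, which moved the median of all genes against both controls by -0.046. Fitting only the groups compared could not be run against both controls, since that comparison uses every group.

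Signs that turned belonged to values that did not pass. C5ar1 against both controls was -0.022 without the scaling factor and ranged from -0.029 to 0.098 leaving out 1 library. Over the same omissions C5ar1 against Cre controls ranged from -0.19 to 0.067, C1qb against Cre controls from -0.42 to 0.028, Serping1 from -0.27 to 0.37 and Gna13 from -0.052 to 0.031. Between the control genotypes C3 ranged from -0.10 to 0.44, Cfb from -0.18 to 0.56 and Cfp from -0.039 to 0.16. The cause was not tested. With 3 pools a genotype, small differences such as that of Cfp are not resolved.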
